A study of Mus musculus with 16 samples.

Results

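The receptor tyrosine kinases Tyro3, Axl and Mertk (the TAM receptors), their ligands Gas6 and Pros1, and 3 further genes of dying-cell removal (Stab1, Mfge8 and Elmo1) were followed in bulk RNA-seq of cells from mouse knee joints. The genes were chosen by name, and all 8 were among the 13733 genes listed and among the 13173 that passed the filter on low values (at least 1 CPM in at least 4 libraries). CPM is a gene's read count relative to the size of its library, after scaling between libraries. The 16 libraries formed 4 groups of 4 samples each: wildtype C57BL/6 mice with uninjured joints (WT D0), wildtype mice 7 days after injury (WT D7), Trem2 knockout mice with uninjured joints (Trem2-/- D0) and Trem2 knockout mice 7 days after injury (Trem2-/- D7). Injury was a rupture of the anterior cruciate ligament by a single tibial compression at 10 weeks of age in male mice, while the labels give 16 weeks as the age of every sample. The knockout is the germline allele C57BL/6J-Trem2em2Adiuj/J, so it is present in every cell of these mice, and the wildtype controls carry no transgene. By the study's methods, buprenorphine and saline were given by intraperitoneal injection after injury, so this treatment goes with injury in both genotypes and cannot be told apart from it. The labels number the samples but do not say which came from separate mice, so the p-values measure the spread between these samples, which may be partly technical.

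Cells that die by apoptosis expose phosphatidylserine on their surface. Gas6 and protein S (Pros1) bind this lipid with their vitamin K-dependent, carboxylated Gla domain and bridge it to TAM receptors on the phagocyte; Gas6 binds Axl, Tyro3 and Mertk, and Pros1 binds Tyro3 and Mertk. Mfge8 is a bridge of another kind that links phosphatidylserine to integrins of the alpha v family, Stab1 (stabilin 1) is a scavenger receptor of macrophages and endothelium that binds phosphatidylserine directly, and Elmo1 is the adaptor that activates Rac through Dock proteins during engulfment. In joints these genes are used by macrophages of the synovial lining and by fibroblasts and endothelium.

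Libraries held between 11567073 (Trem2-/- D0) and 32867818 (Trem2-/- D7) recovered reads. The member with the fewest reads in any library was Tyro3 with 22 reads, whereas no library held fewer than 201 reads of any other member. The knocked-out gene was at 2.51, 4.88, 5.26 and 5.61 CPM in the WT D0 libraries and at 1.88, 0.948, 2.68 and 1.70 CPM in the Trem2-/- D0 libraries. At D7 Trem2 was at 15.1, 22.5, 18.9 and 10.7 CPM in WT and at 4.13, 4.69, 3.42 and 4.84 CPM in Trem2-/-. Knockout libraries lay below wildtype libraries at D7 without overlap (log2 difference -1.72, SE 0.25, adjusted p = 0.0503 by limma) and overlapped them at D0 (-0.98, SE 0.25). Trem2 reads remained in all knockout libraries, and the deleted part of the gene is not given in the sources used here. The joint samples were mixtures: the leukocyte marker list was lower at D7 for 6 of its 6 genes in both genotypes, the macrophage list was higher for 7 of 8 genes in WT and for 4 of 8 in Trem2-/- (with Cd68 lower), the fibroblast list was higher for 5 of 7 and 6 of 7 genes, and 0 of the 6 endothelial genes were called in either genotype. All 4 chondrocyte markers were higher and all 7 neutrophil and all 4 B cell markers were lower at D7 in both genotypes. In such samples fewer cells of a type and less RNA per cell cannot be told apart.

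Axl and Tyro3 rose with injury in both genotypes. They were 1.82-fold and 2.45-fold higher at D7 in WT and 2.38-fold and 3.33-fold higher in Trem2-/-, and Mertk did not pass the test in either genotype. Whether the receptors' responses differed was tested on their shares (given with the receptor pool), and no comparison passed adjustment. Mertk (chr2:128698956-128802894, GRCm38, plus strand) and Tyro3 (chr2:119797733-119818104, plus strand) are on the same chromosome and Axl is at chr7:25757273-25788705 on the minus strand. The sequence before the start of transcription is given for the receptor that was not called, Mertk, for the most abundant receptor that rose, Axl, and for Stab1, the 1 member whose window held no GC box. Each line is the 250 bases upstream of the RefSeq start, 5' to 3' on the gene's strand (GRCm38.p6: chr2:128698665-128698914 for Mertk, chr7:25788734-25788983 for Axl, chr14:31168642-31168891 for Stab1), with matches to the GC box (GGGCGG) and to an ETS motif (GAGGAA) on either strand in capitals.
Mertk: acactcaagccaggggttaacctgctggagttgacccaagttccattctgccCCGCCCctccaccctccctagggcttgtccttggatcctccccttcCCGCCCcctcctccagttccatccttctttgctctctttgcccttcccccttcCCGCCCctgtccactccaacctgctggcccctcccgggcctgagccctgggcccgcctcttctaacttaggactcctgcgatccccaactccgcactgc
Axl: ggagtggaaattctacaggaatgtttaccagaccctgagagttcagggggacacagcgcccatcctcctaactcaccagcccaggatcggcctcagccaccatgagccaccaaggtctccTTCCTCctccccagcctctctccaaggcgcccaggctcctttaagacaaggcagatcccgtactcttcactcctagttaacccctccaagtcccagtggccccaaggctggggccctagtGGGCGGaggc
Stab1: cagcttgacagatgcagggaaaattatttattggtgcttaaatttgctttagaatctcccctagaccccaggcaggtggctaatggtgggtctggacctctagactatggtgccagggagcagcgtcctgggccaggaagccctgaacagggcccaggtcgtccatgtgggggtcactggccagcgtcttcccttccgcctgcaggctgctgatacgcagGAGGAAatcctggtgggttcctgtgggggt
A GC box occurred in the windows of 7 of the 8 members (the first RefSeq promoter where a gene has several) and in 32.7% of 32817 mouse promoters of the same length. The ETS motif was found in Axl, Stab1 and Mfge8 and in 23.3% of all promoters, and the AP-1 motif TGANTCA, held by 6.75% of promoters, was in no member's window. A TATA box (TATAAA), held by 12.4% of promoters, was in the window of Elmo1. Mertk, which was not called with injury, and Axl, which was, both held a GC box.

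Mertk, the receptor most tied to engulfment by macrophages, was at 37.0, 15.6, 18.8 and 20.5 CPM in the WT D0 libraries and at 29.4, 20.4, 19.6 and 31.5 CPM in the WT D7 libraries. In Trem2-/- it was at 13.5, 28.6, 14.3 and 29.7 CPM at D0 and at 24.1, 19.6, 25.2 and 20.8 CPM at D7. The groups overlapped in both genotypes, and the uninjured libraries covered the whole range of the injured ones. The log2 fold change with injury was 0.18 (SE 0.28, 95% confidence interval -0.42 to 0.77, adjusted p = 0.659 by limma) in WT and 0.14 (SE 0.28, interval -0.46 to 0.73, adjusted p = 0.698) in Trem2-/-. Both intervals include 0, and the WT interval reaches 0.77.

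Axl, the receptor bound by Gas6 alone among the ligands measured, was at 222, 98.9, 126 and 208 CPM in WT D0 and at 262, 364, 236 and 283 CPM in WT D7. The knockout libraries were at 149.8, 167, 84.5 and 205 CPM at D0 and at 341, 344, 338 and 357 CPM at D7. Every D7 library lay above every D0 library within each genotype, and the 4 Trem2-/- D7 libraries lay close together (345 ± 8.62 CPM, mean ± SD, n = 4) compared with WT D7 (286 ± 55.5 CPM). The rise was 0.86 in WT (SE 0.27, adjusted p = 0.0267) and 1.252 in Trem2-/- (SE 0.27, adjusted p = 0.0012) on the log2(CPM + 1) scale.

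Tyro3 was the rarest of the receptors in every group. It was at 3.94, 1.05, 2.18 and 5.01 CPM in WT D0, at 9.47, 10.4, 6.55 and 6.77 CPM in WT D7, at 2.49, 2.40, 2.15 and 2.86 CPM in Trem2-/- D0 and at 10.6, 10.1, 10.1 and 11.3 CPM in Trem2-/- D7. No D0 library reached a D7 library of its genotype. The log2 fold change was 1.29 in WT (SE 0.25, adjusted p = 0.003) and 1.74 in Trem2-/- (SE 0.25, adjusted p = 7.72e-05).

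**Figure D1:**
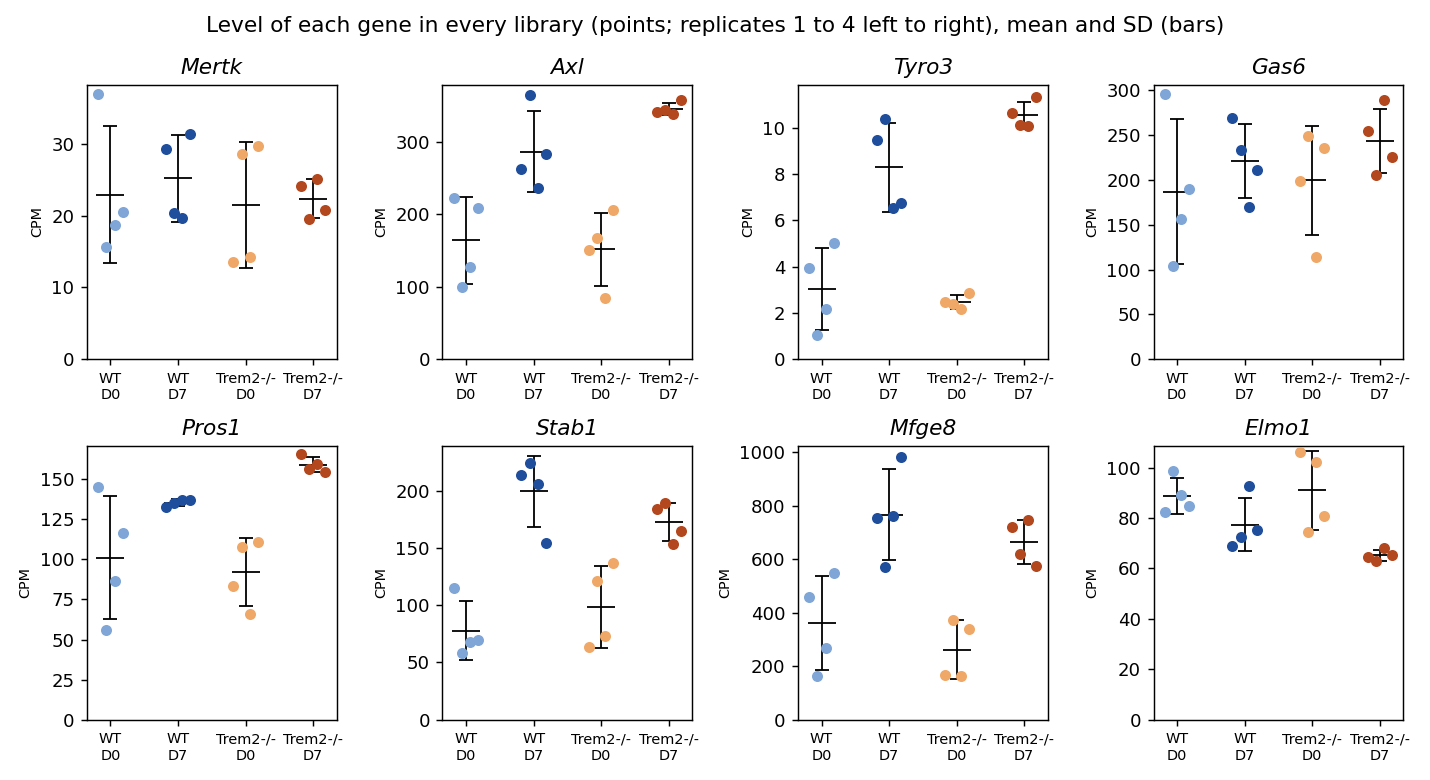
CPM of each of the 8 genes (linear axis from 0) in every library of the 4 groups, WT first and D0 before D7 in each genotype; points are the 4 replicates in number order, horizontal bars the mean and error bars the SD. Axl, Tyro3, Stab1 and Mfge8 are higher in each D7 library than in any D0 library of the same genotype, and Mertk and Gas6 are not.

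Of the ligands, Pros1 was called higher in both genotypes and Gas6 in neither. Gas6 (chr8:13465374-13494490, minus strand) was at 297, 104, 157 and 190.4 CPM in WT D0 and at 269, 234, 170.3 and 211 CPM in WT D7. In Trem2-/- the libraries were at 199, 249, 114 and 235 CPM at D0 and at 254, 206, 289 and 225 CPM at D7. Its groups overlapped in both genotypes, with log2 fold changes of 0.32 (SE 0.28, adjusted p = 0.397) in WT and 0.34 (SE 0.28, adjusted p = 0.327) in Trem2-/-. Without WT D0 replicate 1, the library with the most Gas6, the WT change was 0.58 and was called. That fit called 5764 of the 13173 genes tested, against 4933 with all libraries.

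Pros1 (chr16:62854307-62929346, plus strand), the anticoagulant protein S, was at 145, 55.9, 86.3 and 117 CPM in WT D0 and at 132, 135, 137 and 137 CPM in WT D7. It was at 83.3, 107, 66.0 and 111 CPM in Trem2-/- D0 and at 165, 156, 159.6 and 155 CPM in Trem2-/- D7. The injured libraries were tightly grouped, with an SD of 2.21 CPM in WT and 4.69 CPM in Trem2-/-, while the uninjured ones had an SD of 38.5 and 21.2 CPM. The groups overlapped in WT, where 1 uninjured library exceeded all injured ones, and did not overlap in Trem2-/-. Pros1 rose by 0.50 in WT (SE 0.22, unadjusted p = 0.0386, adjusted p = 0.0977) and by 0.81 in Trem2-/- (SE 0.22, adjusted p = 0.00659) on the log2 scale. The WT call was lost when any of the 4 WT D7 libraries, WT D0 replicate 2 or WT D0 replicate 3 was left out, with changes between 0.25 and 0.51.

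Of the genes outside the TAM axis, Stab1 and Mfge8 rose with injury in both genotypes. On the log2(CPM + 1) scale Stab1 had the largest change of the 8 in WT, which passed to Tyro3 with a pseudocount of 0.1 (1.60 against 1.39). Stab1 (chr14:31139013-31168641, minus strand) was at 115, 57.9, 68.3 and 69.6 CPM in WT D0 and at 213, 224, 206 and 155 CPM in WT D7. It was at 63.4, 121, 73.4 and 137 CPM in Trem2-/- D0 and at 184, 189, 153 and 165 CPM in Trem2-/- D7. Both genotypes were separated by injury without overlap. The change was 1.38 in WT (SE 0.24, adjusted p = 0.00144), a 2.61-fold rise, and 0.87 in Trem2-/- (SE 0.24, adjusted p = 0.00671), a 1.82-fold rise. Its exons share 112 bases, 1.09% of their length, with Nt5dc2, which is read from the other strand; whether counting used strand is not given in the sources used here.

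Mfge8 (chr7:79133768-79149060, minus strand), also called lactadherin, was at 460.3, 165, 267 and 550.1 CPM in WT D0 and at 754, 569.6, 761 and 983 CPM in WT D7. The knockout libraries were at 169, 373, 165 and 339 CPM at D0 and at 719, 619, 747 and 574 CPM at D7. Injured libraries were all above uninjured ones in each genotype. The log2 fold change was 1.21 in WT (SE 0.34, adjusted p = 0.0184) and 1.44 in Trem2-/- (SE 0.34, adjusted p = 0.00276).

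Elmo1 (chr13:20090596-20608353, plus strand) was called lower in Trem2-/- and was not called in WT. It was at 82.3, 98.5, 89.0 and 84.8 CPM in WT D0, at 69.0, 72.7, 92.7 and 75.1 CPM in WT D7, at 106, 74.6, 102 and 80.9 CPM in Trem2-/- D0 and at 64.4, 62.8, 68.3 and 65.4 CPM in Trem2-/- D7. The WT groups overlapped through WT D7 replicate 3, and the Trem2-/- groups did not overlap. Elmo1 fell by 0.46 on the log2 scale in Trem2-/- (SE 0.12, adjusted p = 0.00492), and the WT difference was -0.20 (SE 0.12, adjusted p = 0.212). The antisense gene Gm32036 covers 403 bases of its exons (3.20%) and was not analysed here.

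With the call rule used throughout (unadjusted p under 0.05 and a change of more than 0.32 on the log2 scale, in either direction), injury in WT called 5 of the 8 genes higher and 0 lower, and 4 of them (Axl, Tyro3, Stab1 and Mfge8) had an adjusted p under 0.05. Over all 13173 genes tested the same rule called 37.4% of genes, 19.3% higher and 18.2% lower, and 28.5% had an adjusted p under 0.05. The 4 genes whose D7 libraries all exceeded their D0 libraries compare with 12.9% of all genes. In Trem2-/-, injury called 5 genes higher (Axl, Tyro3, Pros1, Stab1 and Mfge8) and Elmo1 lower, all 6 with adjusted p under 0.05, against a background of 54.5% of genes called, 26.5% higher and 27.9% lower, and 53.2% with an adjusted p under 0.05. The 5 genes separated upward by injury in Trem2-/- compare with 26.1% of all genes and the 1 separated downward with 26.3%. The median log2 fold change of the 8 genes was 0.68 in WT and 0.84 in Trem2-/-, against -0.04 over all genes tested in either genotype.

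**Figure D2:**
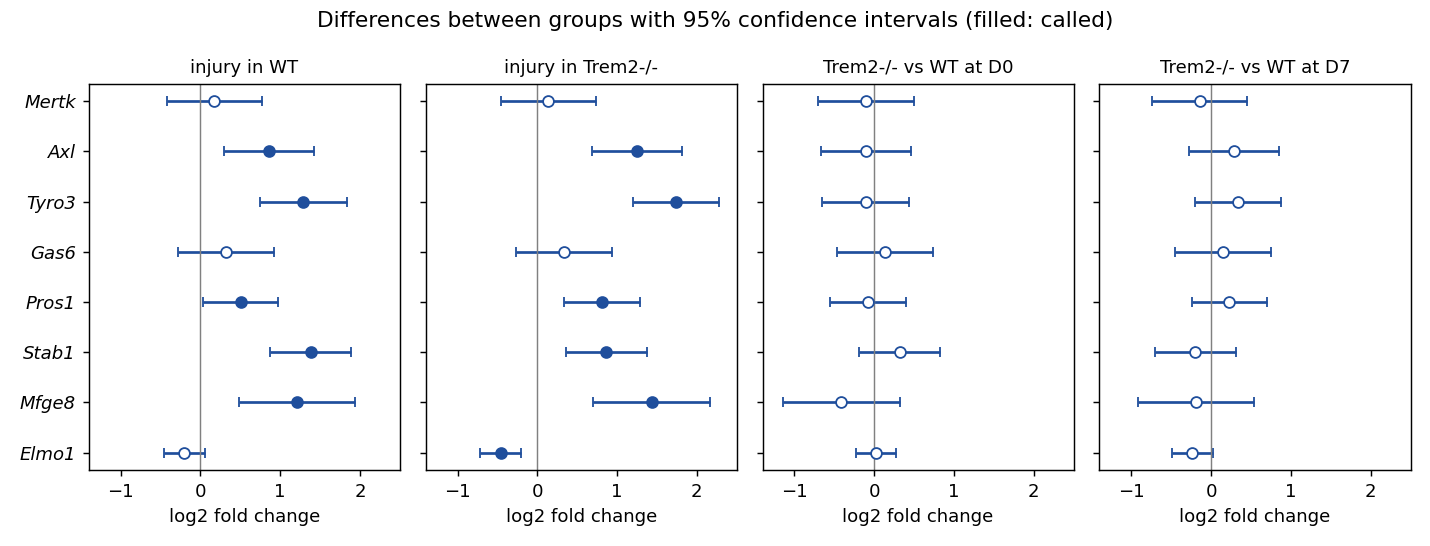
Log2 fold changes of the 8 genes (x axis, log2(CPM + 1) scale) with 95% confidence intervals from limma in 4 comparisons: injury (D7 against D0) in WT and in Trem2-/-, and Trem2-/- against WT at D0 and at D7; filled points were called. The intervals of both genotype comparisons include 0 for all 8 genes.

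None of the 8 genes was called between the genotypes. At D7, 0 of 8 were called by limma, 0 had an unadjusted p under 0.05, and 0 were called by edgeR or by voom, against 5.72% of all genes called (1.18% higher and 4.53% lower in Trem2-/-) 7.27% with an unadjusted p under 0.05 and 0% with an adjusted p under 0.05. At D0, 0 of 8 were called by limma, edgeR or voom and 0 had an unadjusted p under 0.05, with a background of 2.15% called and 2.92% under that p, and the groups of all 8 genes overlapped. The D0 differences ran from -0.41 (Mfge8, interval -1.14 to 0.32) to 0.32 (Stab1, interval -0.19 to 0.82) on the log2 scale. Mfge8 was -0.74 and called without WT D0 replicate 2, and Stab1 was called without WT D0 replicate 1 (0.52) or Trem2-/- D0 replicate 1 (0.50). In that order these fits called 1231, 441 and 353 of the 13173 genes tested, against 283 with all libraries. For the interaction, which asks whether the injury response differed between genotypes, 0 of 8 were called by any of these tools, 0 had an unadjusted p under 0.05, and 7.79% of all genes were called by limma with 8.16% under that p. The intervals of the D7 differences ran from -0.74 to 0.46 for Mertk, from -0.28 to 0.85 for Axl, and from -0.21 to 0.88 for Tyro3 on the log2 scale, so a difference within those bounds is not excluded. For Gas6 the D7 interval was -0.45 to 0.75, and for Mfge8 it was -0.92 to 0.54.

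Pros1 and Elmo1 were nevertheless separated at D7. All 4 Trem2-/- D7 libraries held more Pros1 (155 to 165 CPM) than the WT D7 libraries (132 to 137 CPM), with a log2 difference of 0.23 (SE 0.22, interval -0.24 to 0.70, adjusted p = 0.863 by limma). For Elmo1 all 4 Trem2-/- D7 libraries (62.8 to 68.3 CPM) were below the WT D7 libraries (69.0 to 92.7 CPM), with a log2 difference of -0.23 (SE 0.12, interval -0.49 to 0.02, adjusted p = 0.713). Full separation of these groups occurred in 3.55% of all genes upward and in 4.78% downward. The limma test shares 1 spread over the 4 groups, and the SD of log2(CPM + 1) of Pros1 was 0.59 in WT D0 and 0.02 in WT D7. In a fit of the D7 libraries alone, Tyro3 was called (log2 difference 0.34, unadjusted p = 0.0451, adjusted p = 0.326 by limma). WT was at 8.29 ± 1.92 CPM and Trem2-/- at 10.6 ± 0.588 CPM (mean ± SD, n = 4). That fit called 1366 of the 13173 genes tested, against 753 in the fit of all 4 groups.

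No difference between the injury responses was called. The interaction was -0.04 (SE 0.40) for Mertk, 0.39 (SE 0.38) for Axl and 0.44 (SE 0.36) for Tyro3 on the log2 scale. It was 0.31 (SE 0.31) for Pros1 and 0.02 (SE 0.40) for Gas6. Stab1 (-0.52, SE 0.34, adjusted p = 0.712) and Elmo1 (-0.26, SE 0.17, adjusted p = 0.712) had the smallest unadjusted p-values of the 8, 0.146 and 0.147. With 1 library left out, the interaction ran from 0.14 to 0.61 for Axl, from 0.21 to 0.73 for Tyro3 and from 0.11 to 0.56 for Pros1. The count of interactions called rested on single uninjured libraries. Pros1 and Tyro3 were called without WT D0 replicate 2, and Stab1 without WT D0 replicate 1 or Trem2-/- D0 replicate 1. Elmo1 was called without Trem2-/- D0 replicate 2. In that order these fits called 2236, 818, 890 and 905 of the 13173 genes tested, against 1026 with all libraries.

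Per kilobase of exon, which allows levels to be compared between genes, Mfge8, Gas6, Axl and Pros1 were the 4 most abundant members in every group and Tyro3 the least. In WT D0 the mean levels were 76.8 CPM per kb for Mfge8, 73.4 for Gas6, 32.6 for Axl and 24.7 for Pros1, and neighbours in this order overlapped between libraries. Stab1 (7.56), Elmo1 (7.05) and Mertk (5.30) followed with overlapping ranges, and Tyro3 (0.492) was below all of them without overlap. In WT D7 Mfge8 was at 163 CPM per kb, above Gas6 at 86.7 without overlap, and Stab1 at 19.4 had moved clear of Elmo1 at 6.15 and Mertk at 5.82, which overlapped each other. In Trem2-/- D7 the order was Mfge8 (142), Gas6 (95.6), Axl (68.6), Pros1 (38.9), Stab1 (16.8), Elmo1 (5.18), Mertk (5.17) and Tyro3 (1.70), and only Elmo1 and Mertk overlapped as neighbours. Using the longest transcript in place of all exons put Mfge8 above Gas6 in Trem2-/- D0 (112 against 78.3 CPM per kb), raised Mfge8 to 154.7 in WT D0, separated Elmo1 from Mertk at D7 and put Elmo1 above Stab1 at D0, because the exons of Elmo1 sum to 12.58 kb and its longest transcript to 5.464 kb.

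Axl transcripts made up most of the TAM receptor pool. Of the summed CPM per kb of the 3 receptors, Axl held 84.8 ± 2.35% in WT D0, 88.6 ± 2.55% in WT D7, 84.8 ± 3.32% in Trem2-/- D0 and 90.9 ± 0.846% in Trem2-/- D7 (mean ± SD, n = 4). Mertk held 14.0 ± 2.68%, 9.28 ± 2.52%, 14.0 ± 3.26% and 6.86 ± 0.871% in the same groups, and Tyro3 held 1.21 ± 0.41%, 2.09 ± 0.348%, 1.21 ± 0.346% and 2.26 ± 0.0823%. With injury in Trem2-/- the share of Mertk was lower and those of Axl and Tyro3 higher in every D7 library than in any D0 library (exact two-sided permutation test, p = 0.0286 for each, the smallest that 70 assignments of 8 samples allow; adjusted p = 0.114 over 12 comparisons). In WT the exact permutation p was 0.0857 for Mertk, 0.0857 for Axl and 0.0571 for Tyro3. None of the 12 comparisons passed the adjustment. The ratio of Gas6 to Pros1, on the log2 scale of CPM per kb, was 1.56 ± 0.133 in WT D0, 1.37 ± 0.298 in WT D7, 1.77 ± 0.21 in Trem2-/- D0 and 1.29 ± 0.192 in Trem2-/- D7, and none of its 4 comparisons passed (smallest exact permutation p = 0.0571, for injury in Trem2-/-; adjusted p = 0.229).

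**Figure D3:**
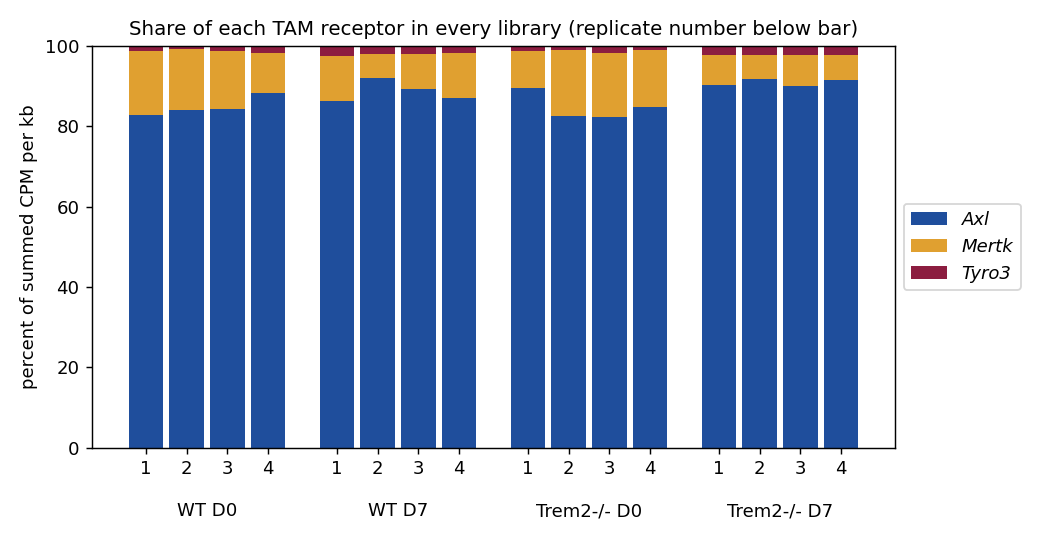
Share of Axl, Mertk and Tyro3 in the summed CPM per kb of the 3 receptors (y axis, percent) in each of the 16 libraries, with the replicate number under each bar. In Trem2-/- D7 the Mertk share lies between 6.06 and 7.80%, below the 9.36 to 16.4% of Trem2-/- D0.

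The libraries of a group differed most among uninjured joints for most members. The SD of log2(CPM + 1) was above the median of all genes for 7 of the 8 members in WT D0 and in Trem2-/- D0 (all but Elmo1 in WT D0, all but Tyro3 in Trem2-/- D0), with a median over members of 0.57 and 0.52 against 0.27 and 0.24 over all genes. In WT D7 it was above that median for 6 of the 8 (0.27 against 0.21), and in Trem2-/- D7 for 4 of the 8 (0.11 against 0.13). Elmo1 in WT had a larger SD at D7 (0.18) than at D0 (0.11). WT D0 replicate 2 was the lowest of its group for 7 members and for 34.8% of all genes, and replicate 1 was the highest for 5 members and for 32.03% of all genes. In Trem2-/- D0, replicates 2 and 4 lay above replicates 1 and 3 for 6 members, an order held by 29.6% of all genes, and Elmo1 had the reverse order, held by 28.3%.

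Within groups the 8 genes moved as 7 and 1. Over the 16 libraries, the deviations from the group means of the 7 members other than Elmo1 were positively correlated in all 21 pairs (Pearson's r from 0.39 to 0.88), and Elmo1 was negatively correlated with each of the 7 (r from -0.76 to -0.50). The points share their library, so its depth and cell makeup enter both members of a pair, and the correlations are given as a description. The share of all genes with the same split was not computed. Deviations were larger at D0 (median SD of the members 0.57 in WT and 0.52 in Trem2-/-) than at D7 (0.27 and 0.11), so the D0 libraries weigh more in these correlations. The highest was that of Axl and Pros1 (0.88). With the endothelial markers (mean log2 level of 6 genes) the deviations of Stab1, Pros1 and Mertk had r = 0.89, 0.68 and 0.66. The other members except Elmo1 had r from 0.30 (Tyro3) to 0.53 (Gas6) with that list. With the fibroblast markers r was 0.82 for Axl, 0.80 for Pros1, 0.77 for Mfge8, 0.77 for Tyro3 and 0.68 for Gas6. Mertk (0.44) and Stab1 (0.28) were lower there. Deviations of Elmo1 followed the leukocyte and neutrophil markers (r = 0.76 and 0.84). The proliferation markers gave r from -0.94 (Pros1) to -0.56 (Tyro3) with the 7 members other than Elmo1, and the neutrophil markers from -0.77 (Mertk) to -0.58 (Tyro3). With the macrophage markers the deviations of the 8 genes had r between -0.49 (Mertk) and 0.27 (Tyro3).

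The endothelial list gives a measure beside Mertk and Stab1 at D0. Its mean level was 8.53, 7.08, 7.66 and 7.23 in the WT D0 libraries and 7.03, 8.14, 7.36 and 8.23 in the Trem2-/- D0 libraries, in log2(CPM + 1), where the summed CPM of its 6 genes ran from 1081 to 2881 in WT D0 and from 1103 to 2373 in Trem2-/- D0. The library with the highest endothelial level in each group (WT D0 replicate 1 and Trem2-/- D0 replicate 4) also had the most Mertk and the most Stab1. The order was not particular to these genes. Both libraries also had the most Axl and Pros1, with Gas6 in WT D0 and Tyro3 in Trem2-/- D0. They were the highest of their group for 32.03% and 29.0% of all genes. With injury the endothelial list was called for 0 of 6 genes in both genotypes (median log2 fold change 0.08 and 0.09), and Stab1 was called higher in both. The log2 level of Stab1 minus the mean log2 level of the macrophage markers changed by 0.09 in WT and by -0.005 in Trem2-/-, with overlapping groups. The part of these cell types in the levels was not tested.

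**Figure D4:**
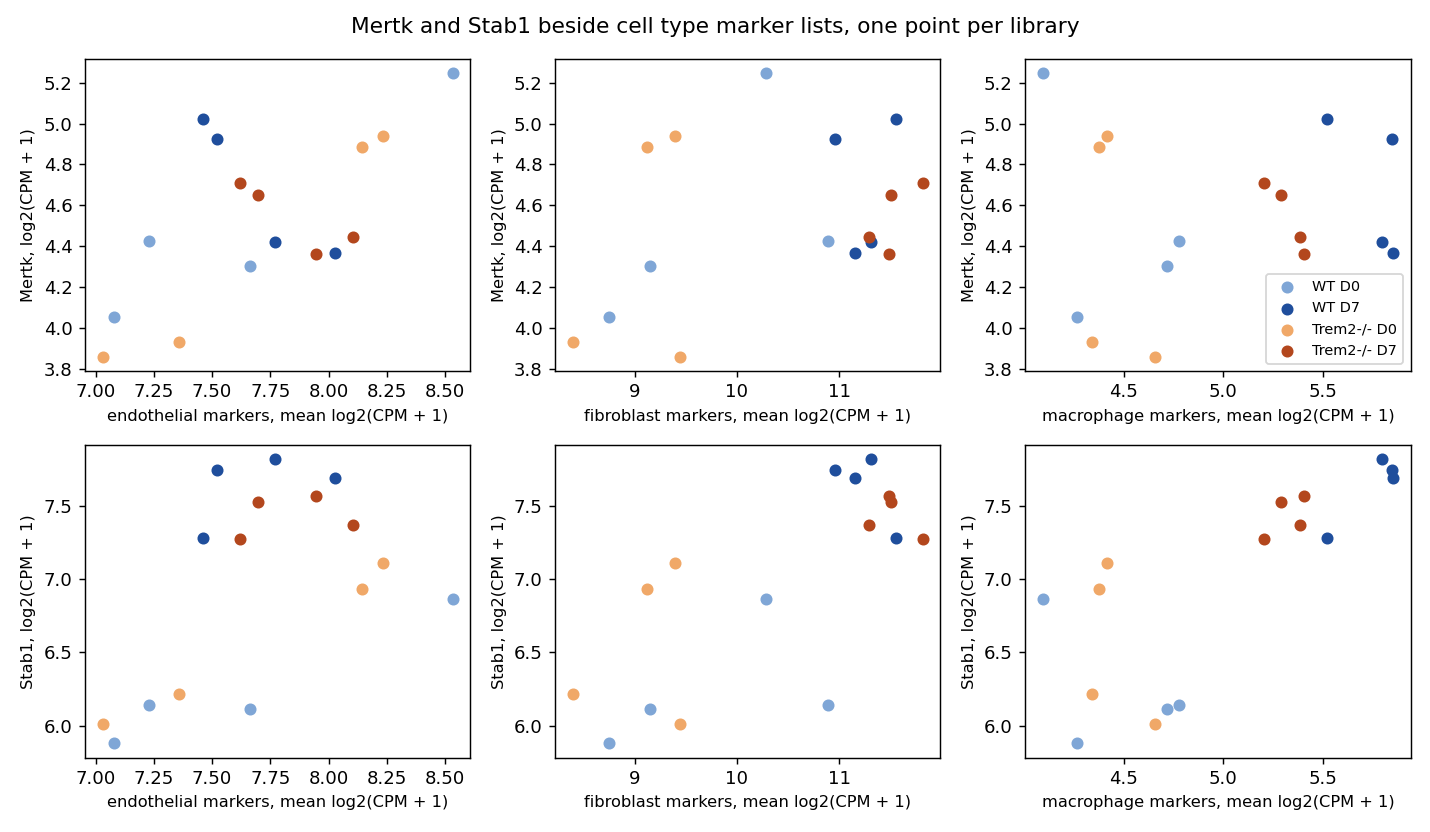
Level of Mertk (top) and Stab1 (bottom), in log2(CPM + 1), against the mean log2(CPM + 1) of the endothelial, fibroblast and macrophage marker lists, 1 point per library and color per group. The uninjured library with the most endothelial signal in each genotype holds the most of both genes, and the D7 libraries lie at macrophage levels above 5, to the right of the D0 libraries, which lie below 5.

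Because macrophages are phagocytes of the joint, each member was also set against the macrophage markers, as its log2 level minus the mean log2 level of the 8 markers. On this scale Mertk was at 0.04 ± 0.75 in WT D0 and -1.07 ± 0.45 in WT D7 (mean ± SD, n = 4), a difference of -1.11 with no overlap. Gas6 (-0.97) and Elmo1 (-1.49) were lower without overlap as well in WT, and Elmo1 (-1.33) in Trem2-/-, whereas Tyro3 was higher by 0.86 in Trem2-/-. The Gas6 difference in WT was -0.59 without WT D0 replicate 1. Between genotypes at D7, Axl (0.72), Tyro3 (0.77), Gas6 (0.58) and Pros1 (0.66) were higher in Trem2-/-, where 4 of the 8 macrophage markers (Adgre1, Cd68, Csf1r and C3ar1) were called lower than in WT. These 9 comparisons had the smallest exact permutation p that the design allows (0.0286; adjusted p = 0.102 over 32 comparisons), and 0 of the 32 passed the adjustment. The macrophage markers rose with injury by a median of 1.08 in WT and 0.50 in Trem2-/-, and their median genotype difference at D7 was -0.46. A gene of constant level would therefore tend to be lower at D7 and higher in Trem2-/- on this scale. The share of all genes separated on it was not computed, so whether the 9 comparisons are particular to these members was not tested. The direction depends on the list: with the leukocyte markers, which fell with injury, Mertk was higher at D7 by 1.08 in WT and 1.98 in Trem2-/-, Gas6 by 1.23 in WT, and Elmo1 by 0.70 in WT and 1.39 in Trem2-/-.

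The other genes of the clearance pathway were described from 9 lists of 77 genes, of which 75 were in the table. Injury in WT called 19 higher and 10 lower, and injury in Trem2-/- called 24 higher and 24 lower, with medians of 0.04 and 0.05 on the log2 scale. The share of all genes called was 37.4% in WT and 54.5% in Trem2-/-. Between genotypes 0 were higher and 7 lower in Trem2-/- at D7 (5.72% of all genes called), and 0 higher and 1 lower at D0 (2.15%). For the interaction, 1 was positive and 6 were negative (7.79% of all genes called).

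Of 8 bridging and opsonizing molecules, 6 (Edil3, C1qa, C1qb, C1qc, Anxa5 and Calr) were higher at D7 in both genotypes, and Thbs1 was lower in Trem2-/-. For this list and the integrin subunits below, the background of all genes called higher was 19.3% in WT and 26.5% in Trem2-/-. C1qa, a subunit of complement C1q that coats dying cells, went from 21.0 ± 8.58 to 101 ± 29.2 CPM in WT (log2 fold change 2.25, SE 0.38, adjusted p = 0.00127) and from 20.4 ± 11.2 to 75.5 ± 10.8 CPM in Trem2-/- (2.02, SE 0.38, adjusted p = 0.000448). Edil3, which like Mfge8 links phosphatidylserine to integrins, went from 13.7 ± 3.91 to 141 ± 25.3 CPM in Trem2-/-, a 9.91-fold rise. In WT it went from 37.2 ± 29.9 to 96.6 ± 22.8 CPM. Edil3 was the 1 gene of all the lists called lower in Trem2-/- at D0 (log2 difference -1.06, SE 0.44), where the groups overlapped. It was also the 1 gene with a positive interaction called (1.61, SE 0.62, adjusted p = 0.579 by limma). The 3 integrin subunits that receive Mfge8 rose in both genotypes: Itgb5 2.30-fold in WT and 3.26-fold in Trem2-/-, Itgav 2.27-fold and 3.50-fold, and Itgb3 1.67-fold and 2.30-fold, with adjusted p-values of 0.0177 or below by limma. The Itgav groups overlapped in WT.

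The enzymes that carboxylate the TAM ligands rose too. Ggcx, the gamma-glutamyl carboxylase, went from 22.3 ± 10.7 to 58.9 ± 9.04 CPM in WT (adjusted p = 0.00132) and from 17.5 ± 2.17 to 67.6 ± 5.15 CPM in Trem2-/- (adjusted p = 3.79e-05). Vkorc1, which recycles its cofactor vitamin K, was 2.35-fold and 3.42-fold higher. Adam10, a sheddase of TAM receptors, was 1.27-fold higher in Trem2-/-. None of the 4 genes of this list was called lower in any comparison, where injury called 18.2% of all genes lower in WT and 27.9% in Trem2-/-.

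Among 11 phosphatidylserine and scavenger receptors tested, 1 was higher and 3 lower in WT and 1 higher and 6 lower in Trem2-/-. Over all genes tested, injury called 37.4% in WT and 54.5% in Trem2-/-, which is also the background for the engulfment genes below. Cd300lf, a phosphatidylserine receptor of myeloid cells, fell from 304 ± 60.3 to 75.9 ± 8.73 CPM in Trem2-/- (adjusted p = 0.000127) and was at 251 ± 36.0 and 166 ± 93.1 CPM in WT, where it was called but had an adjusted p of 0.0716. At D7 Cd300lf, Cd300lb and Havcr2 (Tim-3) were called lower in Trem2-/- than in WT, with adjusted p-values of 0.451 to 0.658. Havcr2 was the receptor that rose in WT, from 10.5 ± 2.82 to 21.6 ± 4.49 CPM. Of the 14 engulfment genes, Dock2, Rac2 and Rhog were lower in both genotypes and Dock1 was higher in both. Rac2, the Rac of blood cells, fell from 450 ± 168 to 199 ± 71.6 CPM in WT and from 566 ± 184 to 115 ± 23.0 CPM in Trem2-/-. Dock2, which pairs with Elmo1 in leukocytes, was at 90.8 ± 21.5 CPM in WT D7 and 49.3 ± 5.92 CPM in Trem2-/- D7, called lower with an adjusted p of 0.451. The leukocyte markers fell in the same libraries, by a median of 0.79 in WT and 1.82 in Trem2-/- on the log2 scale, and their part in these changes was not tested.

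**Figure D5:**
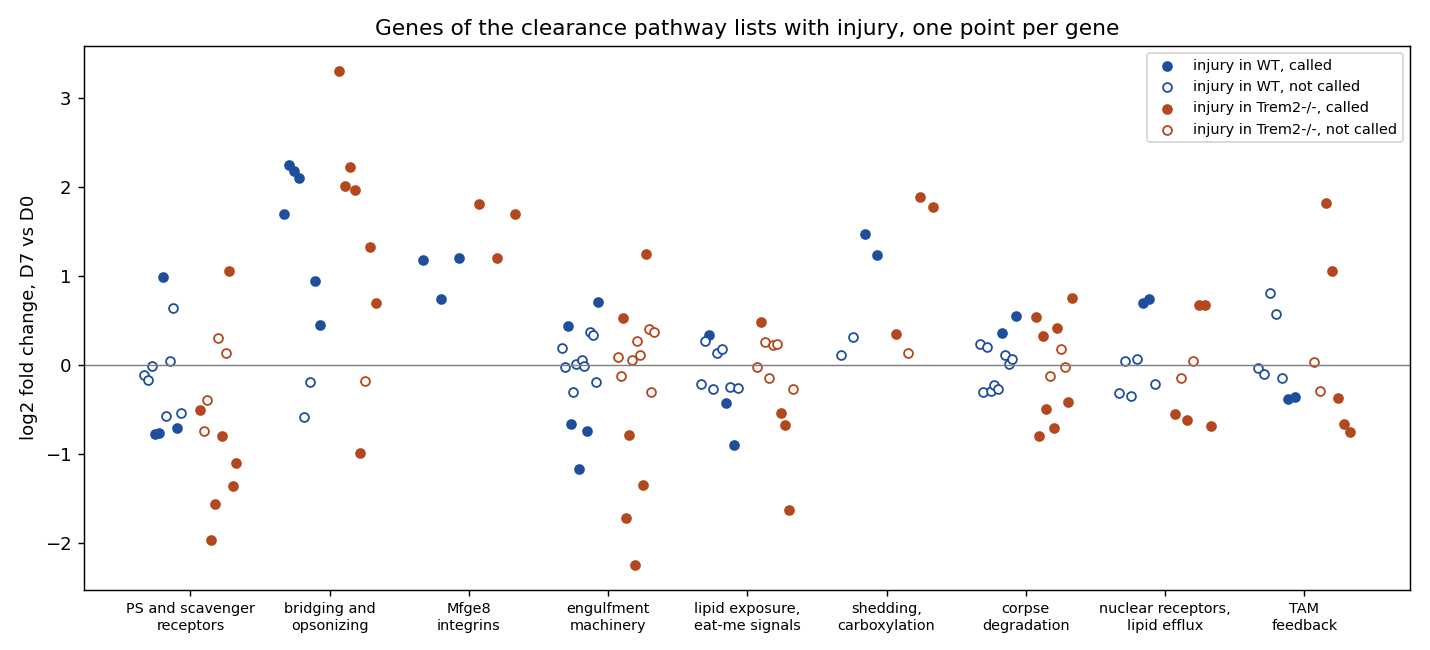
Log2 fold change with injury (y axis, D7 against D0, log2(CPM + 1) scale) of the genes tested in 9 clearance lists, 1 point per gene, WT left (blue) and Trem2-/- right (dark orange) in each list; filled points were called. Bridging molecules, the 3 integrin subunits and the shedding and carboxylation list lie mostly above 0, and the engulfment list runs from above 0 down to Rac2 at -2.25 in Trem2-/-.

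Of 10 genes of lipid exposure and of signals for and against engulfment, 1 was called higher (Atp11a) and 2 lower in WT. In Trem2-/- 1 was called higher (Ano6) and 3 lower. The share of all genes called was 37.4% in WT and 54.5% in Trem2-/-. Cd24a, which restrains engulfment, fell 1.86-fold in WT and 3.11-fold in Trem2-/-. Cd47, the do-not-eat-me signal, fell 1.35-fold and 1.45-fold, with an adjusted p of 0.083 by limma in WT. Its receptor Sirpa was lower in Trem2-/- (1.60-fold). Of 11 genes of corpse degradation, 2 were called higher in WT, and 4 higher and 4 lower in Trem2-/-. Lipa, the lysosomal acid lipase, and Lamp1 were higher in both genotypes, and Rab7 and Atg7 were among 4 genes lower in Trem2-/-. Abca1, which exports cholesterol from phagocytes that have taken up lipid, was 1.67-fold and 1.60-fold higher in WT and Trem2-/-. The nuclear receptor Rxra was 1.63-fold and 1.60-fold higher, while Abcg1 was lower in Trem2-/- (log2 fold change -0.69, adjusted p = 0.000277 by limma). Among genes of the TAM feedback on interferon signaling, Ifnar2 was lower in both genotypes, and Twist1, a target of Axl signaling, was higher in Trem2-/- (3.55-fold, adjusted p = 0.00237).

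The genes whose levels were most like those of each member, over the 16 libraries and among 10552 genes whose mean reached 5 CPM, were named as a description, since all values of a library share its depth and makeup. Among them were Dlg1 and Mark1 for Mertk (r = 0.95 and 0.94), Tgfbr2, Prss23 and Pcnx4 for Axl (r = 0.99, 0.99 and 0.98), and Praf2, Sulf1 and Chpf for Tyro3 (r = 0.99, 0.99 and 0.99). For the ligands they were Il11ra1, Fez1 and Egr3 (Gas6, r = 0.93, 0.91 and 0.91) and Tmem47, Nckap1 and Rab12 (Pros1, r = 0.99, 0.98 and 0.98). Stab1 was most like Mcam (r = 0.96), an adhesion molecule of endothelium and mural cells, then Rin1 and Gdpd5. Mfge8 was most like Cobll1, Stk38l and Tsc22d1, each with r of 0.98, and Elmo1 most like Cers6, Ranbp9 and Kbtbd7 (r = 0.96, 0.95 and 0.95).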

How the data were processed

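Bulk RNA-seq of 16 samples of cells from mouse knee joints (4 per group) was analysed, with groups taken from the genotype and condition labels. The study's methods describe collagenase-released joint cells, and whether CD45 separation was used for these samples is not stated; the labels' extraction text describes homogenized joints and control and T1DM mice, so these accounts differ. The labels name STAR, featureCounts, edgeR, mm10 and GRCm38; versions, annotation and strand setting are not given in the sources used here. The authors deposited normalized signal values, CPM relative to library size times TMM factor; 100% of the values were whole multiples of 1 read within 0.01.

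Values were compared as log2(CPM + 1) with limma 3.58.1 (R 4.3.3; lmFit, eBayes with trend, two-sided, Benjamini-Hochberg over 13173 genes; all 4 groups in one fit). Folds are on that scale and understate changes of low genes. Recovered reads were tested with edgeR 4.0.16 as an alternative. Shares, ratios and differences from markers were tested by exact permutation (two-sided, all assignments of samples). In simulated counts for Trem2-/- against WT at D7 (13049 genes), 95.5% of 200 genes changed 2-fold were called, and 4.36% of unchanged genes. Gene positions are from GENCODE M21 (GRCm38) and promoters from RefSeq (GRCm38.p6), where 8 of 8 members matched; Elmo1 had more than 1 promoter and its first was used. Protein sequences were not used here. All 8 members and Trem2 were named; of each pathway list, up to 3 called genes with the largest change and a mean of at least 5 CPM were named, together with the other genes called where a count is given. The members, lists and tests were chosen with earlier results of these data known. Lrp1, Havcr1, Trac, Hbb-bt and Hbb-bs were not analysed here. Some genes that the naming rule would name are not reported here.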

Additional observations from a re-analysis of the deposited data

Results flagged for a closer look

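Among 84 groups of 4 values examined (the levels of the members and Trem2 in each group, the receptor shares, the ligand ratio and the differences from macrophage markers), 2 held a library far from the other 3 of its group. The test compares the gap to the nearest library with the range of the group, against Dixon's 95% critical value, and chance alone marks about 1 group in 20 (5% of groups). In WT D0, replicate 1 had a Mertk level minus macrophage markers of 1.16 while the other libraries lay between -0.41 and -0.22, a gap of 0.875 of the range. In this library Mertk was the highest of its group (37.0 CPM) and the macrophage markers the lowest (mean log2 level 4.09 against 4.27 to 4.78). In Trem2-/- D7, replicate 2 had a Tyro3 level minus macrophage markers of -1.93 while the other libraries lay between -1.76 and -1.74, a gap of 0.879 of the range. The spread of that group was small (SD 0.0906), so the distance is 0.17 on the log2 scale.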

How the results depend on the processing

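With injury, leaving out 1 library called 4 to 6 members in WT (5 with all libraries) and 6 in Trem2-/-. The WT call of Pros1 was lost in 6 of 8 such fits, and Gas6 was gained in 1. Limma with quantile or median-of-ratios scaling changed no member call. Comparing only the groups concerned called 1 member at D7 (Tyro3). Without 1 library each, 0 to 1 members were called at D0 and 0 to 2 for the interaction. A fold threshold of 1.5 lost Elmo1 in Trem2-/- and Pros1 in WT, whose call was also lost with edgeR (log2 fold change 0.42) and in a fit of the WT libraries alone (0.50). Over all genes, calls at D7 rose from 753 to 1366 with only the groups compared and fell to 340 with a fold of 1.5; at D0 they ran from 107 to 1231, for the interaction from 609 to 2236, and in WT fell from 4933 to 2985 with a fold of 1.5. The replicate block changed no call of a member; replicate numbers did not pair the samples (r over 0.1 in 11 of 24 pairs of same-numbered samples, from -0.51 to 0.41, and 7 of 16 libraries correlated best with their own number).

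Small differences changed sign when 1 library was left out. At D0 the log2 difference ran from -0.32 to 0.15 (Axl), -0.054 to 0.11 (Elmo1), -0.11 to 0.39 (Gas6), -0.28 to 0.14 (Mertk), -0.33 to 0.12 (Pros1) and -0.39 to 0.12 (Tyro3). The interaction ran from -0.24 to 0.26 (Gas6; -0.00702 with voom), -0.29 to 0.14 (Mertk) and -0.027 to 0.55 (Mfge8), and Mertk with injury in Trem2-/- from -0.044 to 0.32. At D0 the receptor shares differed by -1.61 to 1.08 (Axl), -1.26 to 1.61 (Mertk) and -0.162 to 0.174 (Tyro3) percentage points, and the Gas6 to Pros1 ratio at D7 by -0.21 to 0.028. Relative to macrophage markers, the D0 differences ran from -0.27 to 0.21 (Axl), -0.085 to 0.16 (Elmo1), -0.033 to 0.53 (Gas6), -0.28 to 0.28 (Mertk), -0.25 to 0.26 (Pros1) and -0.31 to 0.17 (Tyro3). On that scale the WT injury differences ran from -0.34 to 0.21 (Mfge8), -0.047 to 0.42 (Stab1; -0.00601 with a pseudocount of 0.1) and -0.22 to 0.26 (Tyro3), and those in Trem2-/- from -0.17 to 0.051 (Pros1) and -0.26 to 0.19 (Stab1). With leukocyte in place of macrophage markers the sign turned in WT for Mertk (1.08), Axl (1.76), Gas6 (1.23), Pros1 (1.41), Mfge8 (2.11) and Elmo1 (0.70), in Trem2-/- for Mertk (1.98), Gas6 (2.18), Pros1 (2.66), Stab1 (2.71) and Elmo1 (1.39), and at D0 for Gas6 (-0.13) and Elmo1 (-0.24). That list fell with injury; the cause of the other changes was not tested. Depth limited Tyro3 most, with 22 reads in 1 library.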
